A study of Mus musculus with 6 samples.

Results

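The 9 sarcomeric myosin heavy chain genes Myh1, Myh2, Myh3, Myh4, Myh6, Myh7, Myh7b, Myh8 and Myh13 were followed in quadriceps muscle of mice that differ at the glucocorticoid receptor gene Nr3c1. They were taken by gene symbol, 9 of 33641 symbols, and hold 32 of the 105129 transcript rows of the expression table. All RNA came from male mice, 4 months-old by the sample labels and about 16 weeks by the series text, which were littermates of heterozygous parents, with tissue frozen at about ZT4 (4 hours after lights on). In 3 libraries the genotype was rs6190 allele +/+, a mouse copy of a human receptor variant carried on both chromosomes (called homozygous here), and in 3 libraries it was ref allele +/+ (WT). The allele is in the germline, so every cell type of the muscle carries it, and the RNA was a poly-A selected, stranded preparation from pulverised tissue. Nothing in the labels says which part of the quadriceps was taken or names the mouse behind each library, so the p-values measure the spread between these libraries. The abundance of Nr3c1 does not read the allele, so the genotype labels were not checked.

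Myosin heavy chain is the motor of the thick filament: its head splits ATP and pulls on actin, and its tail packs into the filament. The heavy chain a fibre makes sets its contraction speed, and adult mouse limb fibres use mainly Myh7 (slow, type I), Myh2 (type IIA), Myh1 (type IIX) or Myh4 (type IIB), in order of rising speed. Myh3 and Myh8 are the embryonic and neonatal forms, Myh13 is the form of extraocular and laryngeal muscle, Myh6 is the alpha form of the heart, and Myh7b is an ancient slow form that hosts a microRNA.

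Of the 9 genes, 6 lie in a row on the plus strand of chromosome 11, from 67078300 to 67371586 (GRCm38, GENCODE M21; 293 kb), in the order Myh3, Myh2, Myh1, Myh4, Myh8 and Myh13. Myh6 (54941921 to 54966927) and Myh7 (54970684 to 54994626) are neighbours on the minus strand of chromosome 14, and Myh7b (155611212 to 155634307) is on chromosome 2. All 9 matched an entry of the RefSeq promoter table (GRCm38.p6). The 250 bases before the start of 4 neighbours are printed because Myh1, Myh2 and Myh4, whose mean levels differed between the groups in opposite directions, share a long run of letters there. The windows, all on the plus strand, are chr11:67170777-67171026 for Myh2, chr11:67199852-67200101 for Myh1, chr11:67237562-67237811 for Myh4 and chr11:67276874-67277123 for Myh8. The RefSeq start of Myh4 lies upstream of its GENCODE start, and those of Myh1, Myh6, Myh7b and Myh13 lie downstream of theirs. The windows searched for Myh6 and Myh13 therefore lie inside the GENCODE genes. Capitals mark the longest run that all 4 have in common.
Myh2: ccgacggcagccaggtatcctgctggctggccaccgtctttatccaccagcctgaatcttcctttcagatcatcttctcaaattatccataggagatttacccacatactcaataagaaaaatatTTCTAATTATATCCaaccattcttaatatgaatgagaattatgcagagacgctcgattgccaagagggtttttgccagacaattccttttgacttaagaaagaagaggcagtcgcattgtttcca
Myh1: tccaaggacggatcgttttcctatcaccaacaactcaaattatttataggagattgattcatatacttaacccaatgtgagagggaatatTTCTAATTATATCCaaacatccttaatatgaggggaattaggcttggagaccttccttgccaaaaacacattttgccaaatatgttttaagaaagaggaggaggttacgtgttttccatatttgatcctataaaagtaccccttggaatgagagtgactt
Myh4: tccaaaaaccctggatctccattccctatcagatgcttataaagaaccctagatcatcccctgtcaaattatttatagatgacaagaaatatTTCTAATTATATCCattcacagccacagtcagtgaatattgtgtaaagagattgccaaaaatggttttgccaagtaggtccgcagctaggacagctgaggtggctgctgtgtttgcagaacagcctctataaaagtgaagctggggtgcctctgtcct
Myh8: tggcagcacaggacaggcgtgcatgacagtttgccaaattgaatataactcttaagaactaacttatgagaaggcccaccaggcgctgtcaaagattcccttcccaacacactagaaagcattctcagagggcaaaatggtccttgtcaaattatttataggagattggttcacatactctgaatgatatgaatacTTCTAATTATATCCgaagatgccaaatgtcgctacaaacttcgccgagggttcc

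The shared run is 14 letters long. Among 32851 RefSeq promoter windows of the same length, searched on both strands, 4 held it (0.0122%), and these were Myh1, Myh2, Myh4 and Myh8. The run was taken from these 4 windows, so their matches were given in advance. The search could only add whether further windows hold it. It ended 146 bases before the start in Myh1, 144 in Myh4, 111 in Myh2 and 40 in Myh8. Myh1, Myh2 and Myh4 shared a longer run of 20 letters around it, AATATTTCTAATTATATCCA, and Myh1, Myh4 and Myh8 shared a second run of 15, TCAAATTATTTATAG, which ends in the match to the MEF2 site described next. Each of these runs was found in no other window.

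Further letters were searched on both strands of each window. AGAACA, the core hexamer of glucocorticoid receptor sites, occurred once in the Myh4 window and in no other window of the 9 genes, and 16.1% of all windows hold it. The palindromic receptor site (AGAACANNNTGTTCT) occurred in none of the 9 and in 3 of all 32851 windows. TATAAA was present in Myh1, Myh3, Myh4 and Myh8 (12.4% of all windows), MEF2 sites in Myh1, Myh4 and Myh8 (2.92%), and the CArG box, which serum response factor binds, in Myh4 (1.47%). CATTCC (the MCAT element) occurred in Myh1, Myh4, Myh6 and Myh7 (12.6%), TGCTGA (the core that large Maf factors use) in Myh7b alone of the 9 (16.1%), and TCAGGTT in none (3.49%). CANNTG (the E-box) was in each of the 9 but Myh1 and Myh2 (66.2%), and GGAAA (the NFAT core) in Myh1, Myh2, Myh3 and Myh7 (55.6%). In Myh1, Myh4 and Myh8 a TATAAA on the opposite strand lies inside the MEF2 match, and it is the only one in Myh8. These are matches of letters, not evidence of binding, and absence holds for these windows only.

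The libraries held RNA of skeletal muscle, with Acta1, the skeletal actin, between 16711 and 27969 TPM (abundance corrected for transcript length and scaled to the same total in every library). TPM carries no depth. An estimate from the spacing of low values gave 15.8 M to 21.7 M fragments per library. WT replicate 3 and homozygous replicate 2 stood apart in fibre-type genes: the 10 slow-fibre genes listed further down summed to 264 TPM in WT replicate 3, 9398 TPM in homozygous replicate 2 and 1180.5 to 2288 TPM in the others. Mitochondrial transcripts took 14.3% of TPM in WT replicate 3 and 20.9% to 33.9% elsewhere. Heart muscle markers were near 0 in every library, with Nppb and Nkx2-5 listed at 0 throughout and the 7 cardiac genes together at 0.288 to 1.17 TPM. Schwann cell markers were higher in every homozygous library: the 4 genes summed to 51.7, 71.3 and 15.01 TPM with the rs6190 allele against 10.5, 12.2 and 8.05 TPM with the reference allele. Each of the 3 tested genes among them stood apart in this way, as did 34.7% of all tested genes. The sums of satellite cell, adipocyte, blood, endothelial, immune and tendon markers overlapped between the groups. That of smooth muscle markers, given further down, did not. The part of these cells in the results below was not tested.

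Together the 9 genes made up 0.859%, 0.668% and 0.650% of all TPM in homozygous replicates 1, 2 and 3 and 0.744%, 0.632% and 1.48% in WT replicates 1, 2 and 3. The groups overlapped, and WT replicate 3 held the most heavy chain RNA. In all 6 libraries Myh4 was the most abundant of the family, followed by Myh1, Myh2 and Myh7. The other 5 genes took between 0.0220% and 0.267% of the family total. Among these 5, Myh8 was the highest in 4 libraries and Myh7b in 2, and their levels overlapped between neighbours in the order.

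**Figure D1:**
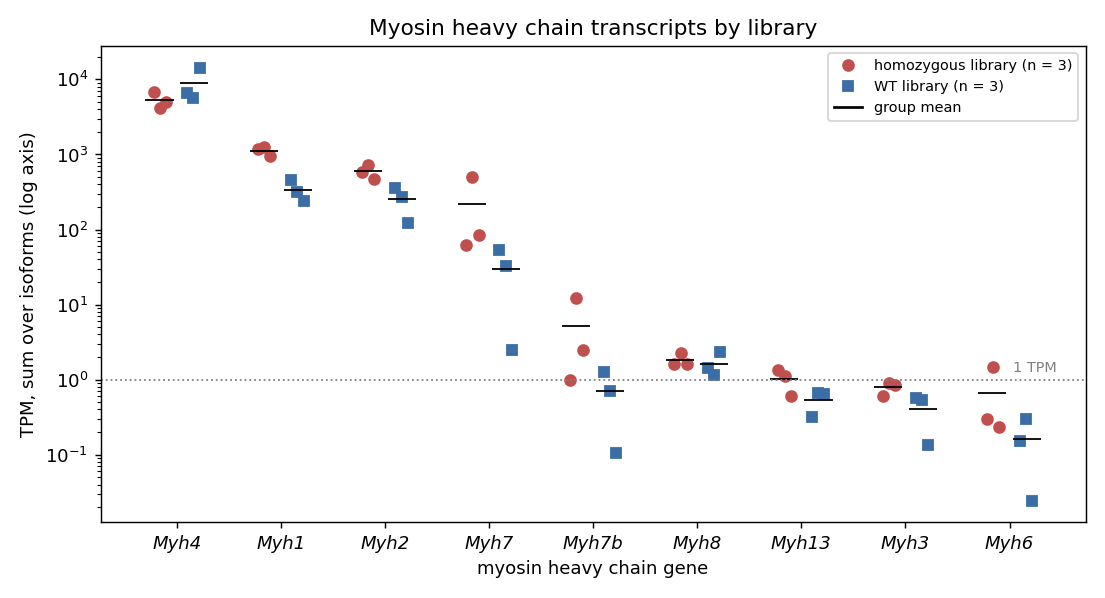
TPM of each myosin heavy chain gene (sum over isoforms, log axis) in 3 homozygous (circles) and 3 WT libraries (squares), with black lines at group means and a dotted line at 1 TPM. Every homozygous library lies above every WT library for Myh1, Myh2 and Myh7, and also for Myh3, below the dotted line, while the groups overlap for the other 5 genes.

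The question of the comparison was which transcripts differ between muscle with the rs6190 allele and muscle with the reference allele. Myh1 and Myh2, the heavy chains of type IIX and IIA fibres, were 3.32 and 2.38 times as abundant in homozygous as in WT muscle by the ratio of mean TPM, and Myh7, the slow chain, 7.35 times. The value of Myh7 rests largely on homozygous replicate 2, at 502 TPM against 62.5 and 84.1 TPM in homozygous replicates 1 and 3. Myh4, the type IIB chain, was 0.597 times as abundant, with overlapping groups. In bulk RNA, fewer fibres of a type and less of its RNA per fibre cannot be told apart. None of these passed the threshold over all genes. A gene was tested where it reached 1 TPM in at least 3 libraries, which 6 of the 9 did, and the test was limma on log2(TPM + 1) with Benjamini-Hochberg adjustment over the 11099 genes tested. At an adjusted p under 0.05, 0 of the 6 passed, against 0% of all tested genes. At an unadjusted p under 0.05 there were 2 members, Myh1 and Myh2, both higher in homozygous muscle, where 23.7% of all tested genes were higher and 0.55% lower by that rule. In 3 of the 6, Myh1, Myh2 and Myh7, every homozygous library lay above every WT library, as in 34.7% of all tested genes, and in 0 did the WT libraries all lie above (0.73%). Libraries were also weighted by how far their values scatter about the group means (limma array weights). These weights come from the same values, not from a separate measure of quality. With them 1 of the 6 passed, Myh1 at an adjusted p of 0.0396 in limma, where 7.3% of all tested genes did. The median log2 fold change over all tested genes was 0.26, so differences are also given relative to it.

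Myh4, the fastest chain and the main one of this muscle, was 6742, 4176 and 4988 TPM in homozygous replicates 1, 2 and 3 and 6558, 5699 and 14389.7 TPM in WT replicates 1, 2 and 3. WT replicate 3 stood far above the rest, and WT replicates 1 and 2 lay within the homozygous range. The means differed by less than the spread of the WT libraries, 5302 ± 1311 TPM with the rs6190 and 8882 ± 4789 TPM with the reference allele (SD, n = 3 each). On the log2(TPM + 1) scale the fold change, homozygous minus WT, was -0.65 (SE 0.37), or -0.91 relative to the median of all genes (limma, adjusted p 0.285). Without WT replicate 3 it was -0.23, and without both WT replicate 3 and homozygous replicate 2 it was -0.08 (SE 0.21), a pair left out after the values were seen.

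Myh1, the type IIX chain, was 1183, 1253 and 942 TPM with the rs6190 allele against 464, 315 and 239 TPM with the reference allele. The groups stood clear of each other, and the gap between them was wider than the spread within either. Homozygous muscle averaged 1126 ± 163 TPM and WT muscle 339 ± 114 TPM (SD, n = 3 each). On the log2 scale that is 1.77 (SE 0.25), which exceeds the all-gene median by 1.51. Its p was 9.84e-05 before adjustment and 0.168 after it in limma; 4 of the 11099 genes had a smaller p, and 99.7% had a lower fold change. It was 1.55 without WT replicate 3, 1.69 without homozygous replicate 2 and 1.46 without both (SE 0.24; limma, adjusted p 0.252).

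Myh2, the type IIA chain, was 593, 728 and 478 TPM with the rs6190 allele against 361, 272 and 122 TPM with the reference allele, again without overlap. On the log2 scale the difference was 1.36 (SE 0.38), exceeding the all-gene median by 1.10, with a limma p of 0.00683 before adjustment and 0.168 after it. WT replicate 3 had the lowest level of Myh1 and of Myh2 and the highest of Myh4. Without it the value was 0.91, and without homozygous replicate 2 as well it was 0.76 (SE 0.21).

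Myh7, the slow chain shared with the heart ventricle, was at 62.5, 502 and 84.1 TPM with the rs6190 allele against 52.9, 32.8 and 2.497 TPM with the reference allele. The groups did not overlap, but homozygous replicate 1 and WT replicate 1 were close, and the highest library held 201 times the level of the lowest. The log2 fold change was 2.91 (SE 1.30; limma, adjusted p 0.231), and it was 0.78 (SE 0.27) without homozygous replicate 2 and WT replicate 3. Its size thus depended on those 2 libraries more than that of Myh1 did in these fits.

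Myh7b, whose gene hosts a microRNA of slow muscle, was far lower, and also highest in homozygous replicate 2 and lowest in WT replicate 3: 0.976, 12.1 and 2.45 TPM with the rs6190 allele against 1.28, 0.711 and 0.104 TPM with the reference allele. In this sum over isoforms homozygous replicate 1 lay below WT replicate 1, so the groups overlapped. Its log2 fold change was 1.46 (SE 0.67; limma, adjusted p 0.227), and 0.40 without homozygous replicate 2 and WT replicate 3. The gene passed the filter with 3 libraries at 1 TPM or more, and its lowest library rested on an estimated 9.99 fragments. The coding isoform Myh7b-201 was 0.718, 5.86 and 0.947 TPM with the rs6190 allele against 0.647, 0.509 and 0.104 TPM with the reference allele. That is without overlap, as in 25.6% of all tested isoforms, but this isoform was below the filter and was not tested. The rest of the sum came from the short non-coding transcripts Myh7b-202 (667 nt) and Myh7b-203 (674 nt). Trpc4ap, which overlaps the end of Myh7b on the other strand, was at 42.2 to 55.2 TPM.

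Myh6, the cardiac alpha chain, was 0.299, 1.46 and 0.231 TPM with the rs6190 allele against 0.153, 0.301 and 0.0244 TPM with the reference allele. Homozygous replicate 2 was again the highest and WT replicate 3 the lowest, as for Myh7 and Myh7b. Its values rest on an estimated 2.34 to 97.0 fragments, and 30.7% of its 31-base words also occur in Myh7, so reads of those stretches cannot be told apart and its level is uncertain. It was below the filter and was tested only without one (log2 fold change 0.45, SE 0.27; limma, adjusted p 0.447).

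Among the developmental chains, Myh8 (neonatal) was at 1.60, 2.26 and 1.63 TPM with the rs6190 allele against 1.43, 1.14 and 2.33 TPM with the reference allele. It rests on an estimated 101 to 224 fragments per library. Of its 31-base words 16.9% also occur in another of the 9 genes, so its level is uncertain. Its groups overlapped, its highest library held 2.05 times the level of its lowest, and the difference on the log2 scale, 0.12 (SE 0.21, adjusted p 0.706 in limma), turned to -0.18 after each library was centred on its median. Myh3 (embryonic) was 0.603, 0.912 and 0.841 TPM with the rs6190 allele against 0.573, 0.527 and 0.135 TPM with the reference allele, under 1 TPM throughout. Every homozygous library was above every WT library for Myh3, but at an estimated 12.7 to 75.7 fragments per library it lay below the filter and gave 0.35 as log2 fold change (SE 0.17, adjusted p 0.359 in limma without a filter). Genes of regenerating or denervated fibres overlapped between the groups in sum: the 8 genes of that list, among them Chrng and Ncam1, summed to 23.9, 28.8 and 34.2 TPM with the rs6190 allele against 19.9, 17.3 and 30.6 TPM with the reference allele. Myl4 alone gave 6.74 to 15.8 TPM of that sum, and Chrng at most 0.242 TPM. Of 5 tested genes 0 passed in limma. The log2 fold change was positive for 4, as for 9526 of the 11099 tested genes. It was negative for 1, Myog, whose WT libraries all lay above (0.73% of all tested genes).

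Myh13, the extraocular chain, was 1.35, 1.13 and 0.603 TPM with the rs6190 allele against 0.318, 0.658 and 0.651 TPM with the reference allele, with overlapping groups and an estimated 9.38 to 36.9 fragments. Between 45.6% and 92.6% of its TPM came from the short transcript Myh13-204 (668 nt), which has 4 exons near the end of the gene. In the unfiltered limma fit it stood at 0.38 on the log2 scale (SE 0.19, adjusted p 0.370).

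Shares of the family total do not move with the scaling of a library, so the composition was compared as well. Myh4 took 78.5%, 62.5% and 76.8% of heavy chain TPM with the rs6190 allele against 88.1%, 90.1% and 97.5% with the reference allele. Every homozygous share was below every WT share, unlike the TPM of the same gene. The means were 72.6% ± 8.77 and 91.9% ± 4.93 (SD, n = 3 each), a difference of -19.3 percentage points. Myh1 filled the largest part of that gap, with 13.8%, 18.8% and 14.5% against 6.24%, 4.98% and 1.62%, a difference of 11.4 points. Myh2 took 6.91%, 10.9% and 7.36% against 4.85%, 4.31% and 0.826%, a difference of 5.06 points, and Myh7 0.728%, 7.52% and 1.29% against 0.711%, 0.520% and 0.0169%. The exact two-sided permutation test gave p = 0.10 for each of these 4 shares (n = 3 each), the smallest value that 3 against 3 allows, so none can pass 0.05. In the exact permutation test p was 0.2 to 0.3 for the shares of the other 5 genes (n = 3 each), and p-values were computed for 13 shares and sums in all, without adjustment. Shares within a library sum to 100%, so they are not independent of each other.

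**Figure D2:**
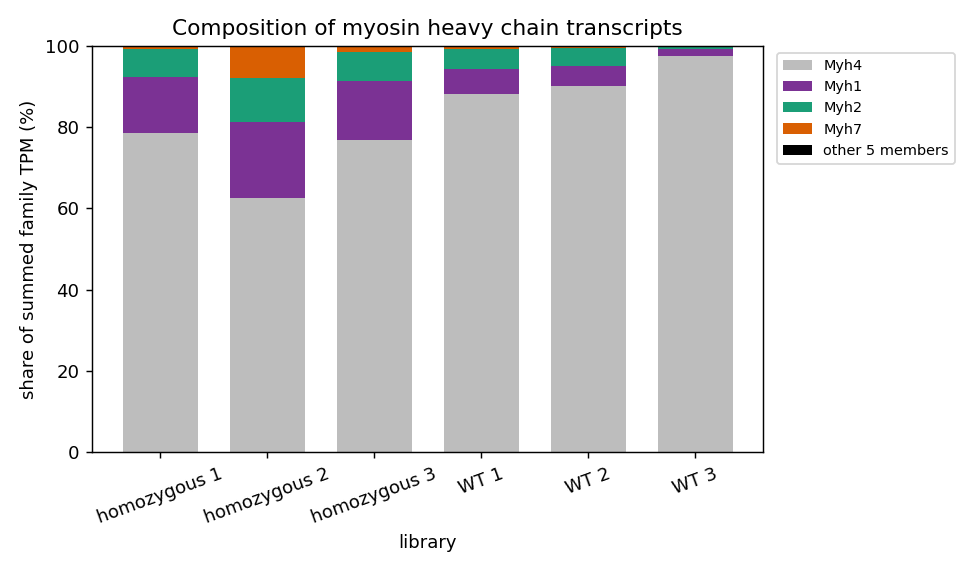
Share of the summed TPM of the 9 genes (percent, stacked bars) in each library; the other 5 members together are too small to see. Myh4 takes 62.5% to 78.5% in the homozygous and 88.1% to 97.5% in the WT libraries, and the Myh1 and Myh2 segments are wider in all 3 homozygous libraries.

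Without homozygous replicate 2 and WT replicate 3 the difference in the Myh4 share was -11.5 points (77.6% against 89.1%), in Myh1 8.54 points and in Myh2 2.55 points, while in Myh7 it was 0.395 points. In the remaining 4 libraries Myh1 and Myh2 thus took larger shares with the rs6190 allele while the TPM of Myh4 overlapped.

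Ratios between pairs of genes were also taken within each library. For each Myh1 transcript there were 5.70, 3.33 and 5.29 Myh4 transcripts with the rs6190 allele against 14.1, 18.1 and 60.2 with the reference allele. The mean log2 ratio of Myh1 to Myh4 was -2.22 ± 0.42 and -4.64 ± 1.12 (SD, n = 3 each), a difference of 2.42, or 5.35-fold, and it was 1.54 without homozygous replicate 2 and WT replicate 3. For Myh2 to Myh4 the difference was 2.01 and for Myh7 to Myh4 3.73, both without overlap of the groups, and without those 2 libraries the differences were 0.84 and 0.87. These 3 ratios had p = 0.10 in the exact two-sided permutation test (n = 3 each). The ratio of Myh1 to Myh2 differed less. Its log2 value was 0.997, 0.783 and 0.979 with the rs6190 allele against 0.362, 0.208 and 0.972 with the reference allele. The groups overlapped through WT replicate 3 (exact permutation p = 0.2, n = 3 each). Unlike the other differences given here, that of 0.41 widened, to 0.70, without homozygous replicate 2 and WT replicate 3. The log2 ratio of Myh7 to Myh2 overlapped too (exact permutation p = 0.3, n = 3 each), and its difference of 1.71 was 0.034 without homozygous replicate 2 and WT replicate 3. In all, 5 ratios were tested, without adjustment.

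**Figure D3:**
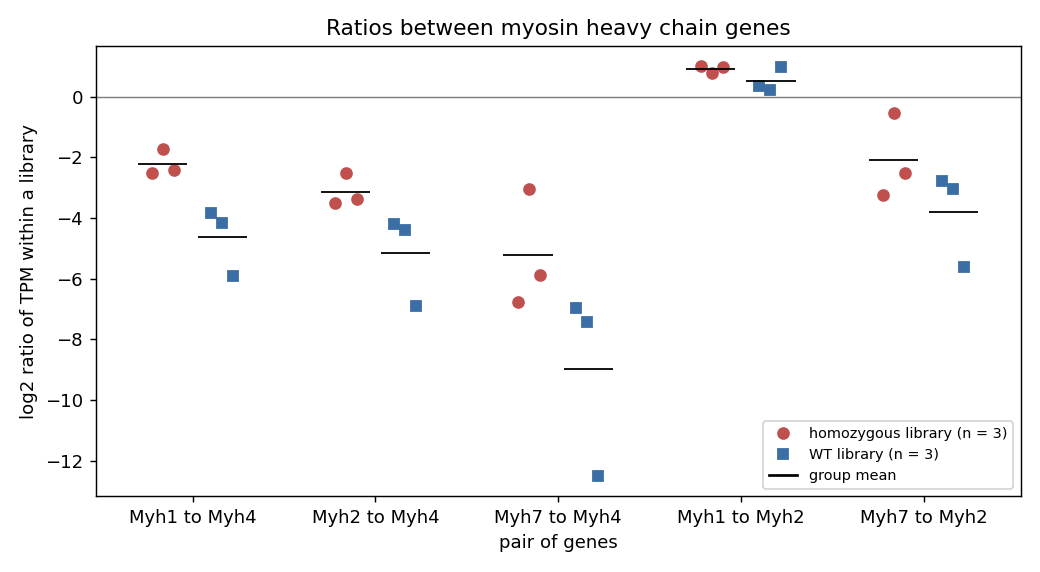
Log2 ratio of TPM between pairs of myosin heavy chain genes within each library, for 3 homozygous (circles) and 3 WT libraries (squares), with lines at group means. The groups stand apart for Myh1, Myh2 and Myh7 relative to Myh4 and overlap for Myh1 to Myh2 and Myh7 to Myh2.

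**Figure D4:**
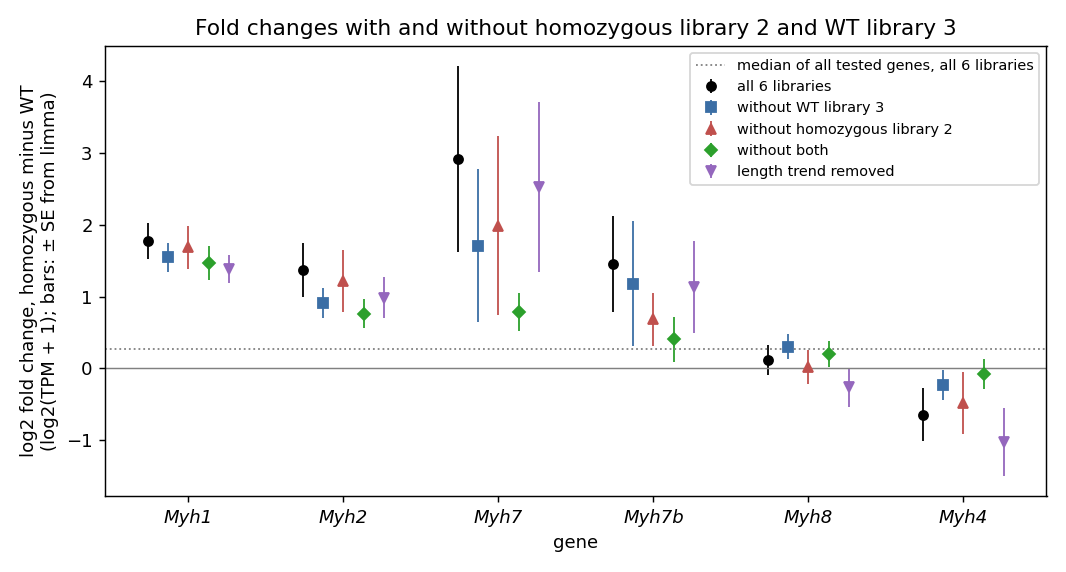
Log2 fold change (homozygous minus WT, log2(TPM + 1), bars ± SE from limma) of the 6 tested genes with all libraries, without WT replicate 3, without homozygous replicate 2, without both, and with the trend on transcript length taken out; the dotted line is the median of all genes. Myh1 stays between 1.39 (length trend) and 1.77, Myh7 goes from 2.91 to 0.78 and Myh4 from -0.65 to -0.08 without both libraries.

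The heavy chains are about 6 kb long and resemble each other, which bears on how reads were shared among them. Cut into words of 31 bases, 37.8% of Myh1, 32.8% of Myh2 and 30.4% of Myh4 also occurred in another of the 9 genes, most of them in another of these 3, against 0.167% of Myh7b. The part shared with another of the 9 was 16.9% for Myh8, 13.4% for Myh13 and 10.6% for Myh3. Within genes the isoforms are harder to tell apart: Myh1-202, Myh2-201 and Myh4-202 had 0 words of their own, and Myh1-203 had 61 of 6051. Of the 32 isoform rows, 27 were above 0 in some library and 11 were tested.

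None of the 11 passed in limma over the 21165 isoforms tested, where 0.0425% did. At an unadjusted p under 0.05 there were 8 higher isoforms (14.2% of all tested isoforms) and 1 lower (1.52%). The groups did not overlap for 8 with the homozygous libraries above (25.6%) and for 1 with the WT libraries above (2.11%). The smallest adjusted p was that of Myh1-203 (ENSMUST00000124516.7), a full-length form of 6081 nt: it was 319, 351 and 335 TPM with the rs6190 allele against 144, 106 and 139.9 TPM with the reference allele, and its log2 fold change was 1.37 with an SE of 0.15 and an adjusted p of 0.0709 in limma. Its homozygous libraries lay closer together than those of any other long Myh1 isoform. Myh1-202, the most abundant isoform in 5 of the 6 libraries, was 767, 719 and 451 against 304, 181 and 98.7 TPM, and Myh1-201 was 95.1, 177 and 152 against 15.1, 26.8 and 0.329 TPM. All 4 isoforms of Myh1 and all 3 of Myh2 were higher in every homozygous library.

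The lower isoform was Myh4-202 (ENSMUST00000170942.1), which has 38 exons against 39 in Myh4-201 and starts farther downstream. It had 708, 413 and 363 TPM with the rs6190 allele against 727, 1779 and 1491 TPM with the reference allele, and its log2 fold change was -1.39 with an SE of 0.40 and an adjusted p of 0.271 in limma. Of all Myh4 TPM it took 10.5%, 9.90% and 7.29% with the rs6190 allele against 11.1%, 31.2% and 10.4% with the reference allele. WT replicate 2 stood out in that share, and the other 5 libraries lay between 7.29% and 11.1%. Myh4-202 has no word of its own, so the split rests on the 104 words that Myh4-201 alone has.

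Annotated neighbours in these loci included the antisense RNAs Myhas, from Myh1 towards Myh4, 9430073C21Rik at the end of Myh2 and Mhrt at Myh7, the lincRNA 2310065F04Rik between Myh3 and Myh2, and the microRNAs Mir208a, Mir208b and Mir499 inside Myh6, Myh7 and Myh7b. Of 14 such genes 2 had a row, Trpc4ap and Gm17428, the latter at 2.02 TPM in homozygous replicate 2 and listed at 0 elsewhere; the other 12 were not analysed here. Whether the abundances were estimated by strand is not stated, so reads of antisense partners cannot be told apart.

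Genes that regulate heavy chain transcription were taken from a list of 39, of which 36 were tested. Over all 11099 tested genes 9526 had a positive and 1573 a negative log2 fold change, and the counts of this and the following lists stand against those and the shares given above (23.7% higher and 0.55% lower at an unadjusted p under 0.05). In limma 0 of the 36 passed, 9 were higher and 1 lower at an unadjusted p under 0.05, 34 had a positive and 2 a negative log2 fold change, and the median was 0.31, near the 0.26 of all genes. Every homozygous library lay above every WT library for 13 of them (34.7% of all tested genes), and the reverse held for 1 (0.73%). The largest values were those of Rcan1, a calcineurin inhibitor that calcineurin signalling itself induces, at 191, 121 and 110.5 against 62.9, 82.8 and 45.4 TPM (log2 fold change 1.13), and Hdac4, a deacetylase that represses MEF2, at 1.03. Both had an adjusted p of 0.168 in limma. Sox6, which represses slow chains, was 22.4, 27.0 and 29.7 against 16.4, 18.2 and 11.2 TPM, and was named after its values were seen. The lowest values were those of Myog, a myogenic factor that denervation induces, at -0.50, and Myf6, a myogenic factor of adult fibres, at -0.07. Myog was 1.42, 2.69 and 2.54 against 3.10, 3.66 and 3.66 TPM, and is that 1 gene.

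Of 10 genes for folding and turnover of myosin, 0 passed in limma and 2 were higher at an unadjusted p under 0.05, against 23.7% of all tested genes. Fold changes were above 0 for 8 and below 0 for 2, with a median of 0.26, beside 0.26 over all genes. Fbxo32, a ubiquitin ligase of atrophy, and Hsp90aa1, a chaperone that folds the myosin head, had the largest log2 fold changes at 0.61 and 0.56, with overlapping groups. Trim63 (MuRF1), the ligase that marks heavy chains for degradation, was at -0.04 and the chaperone Hspa8 at -0.02. The myosin chaperone Unc45b was 103 to 117 TPM in the homozygous and 93.9 to 99.1 TPM in the WT libraries, and was named after its values were seen. Its groups did not overlap, as in 34.7% of all tested genes. Its log2 fold change of 0.17 (limma, adjusted p 0.369) was below the 0.26 of all genes.

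Of the partners of myosin in the thick filament, 0 of 8 tested genes passed in limma, 4 were higher and 0 lower at an unadjusted p under 0.05 (23.7% and 0.55% of all tested genes), and the median was 0.35. Mybpc1, the slow myosin-binding protein C, was 882, 1126 and 763 TPM with the rs6190 allele against 368, 279 and 153 TPM with the reference allele, a log2 fold change of 1.86 (SE 0.31; adjusted p 0.168). Its groups stood apart as those of Myh1 did. Myom3, an M-band protein, was at 1.51, Mybpc2, the fast binding protein C, at -0.30, and Mybph at -1.71, the last through 165 TPM in WT replicate 3 against 6.52 to 13.3 TPM elsewhere.

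Slow and fast thin-filament, light chain and calcium-handling genes were extreme in the 2 libraries that stood apart. Csrp3 of the slow list was an exception: it was highest in WT replicate 1 (325 TPM), with 198 TPM in homozygous replicate 2. Of 10 slow genes 0 passed in limma, with 1 higher at an unadjusted p under 0.05 (23.7% of all tested genes), and all 10 had a positive fold change, as 9526 of the 11099 tested genes did, with a median of 2.15, led by Tpm3 (2.80) and Tnni1 (2.71) and lowest for Csrp3 (1.20) and Casq2 (1.37). Their sum was 2145, 9398 and 2288 TPM with the rs6190 allele against 2009.7, 1180.5 and 264 TPM with the reference allele, which puts the 6 libraries in the same order as Myh7 does. Of 10 fast genes 0 passed, with 0 at an unadjusted p under 0.05 (0.55% of all tested genes were lower), and all 10 had a negative fold change, as 1573 of the 11099 did, with a median of -0.39, from -0.24 for Tnnt3 and -0.26 for Tnni2 to -0.58 for Actn3 and -0.65 for Pvalb. Their sum was 92232 to 125181 TPM in 5 libraries and 220512 TPM in WT replicate 3.

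**Figure D5:**
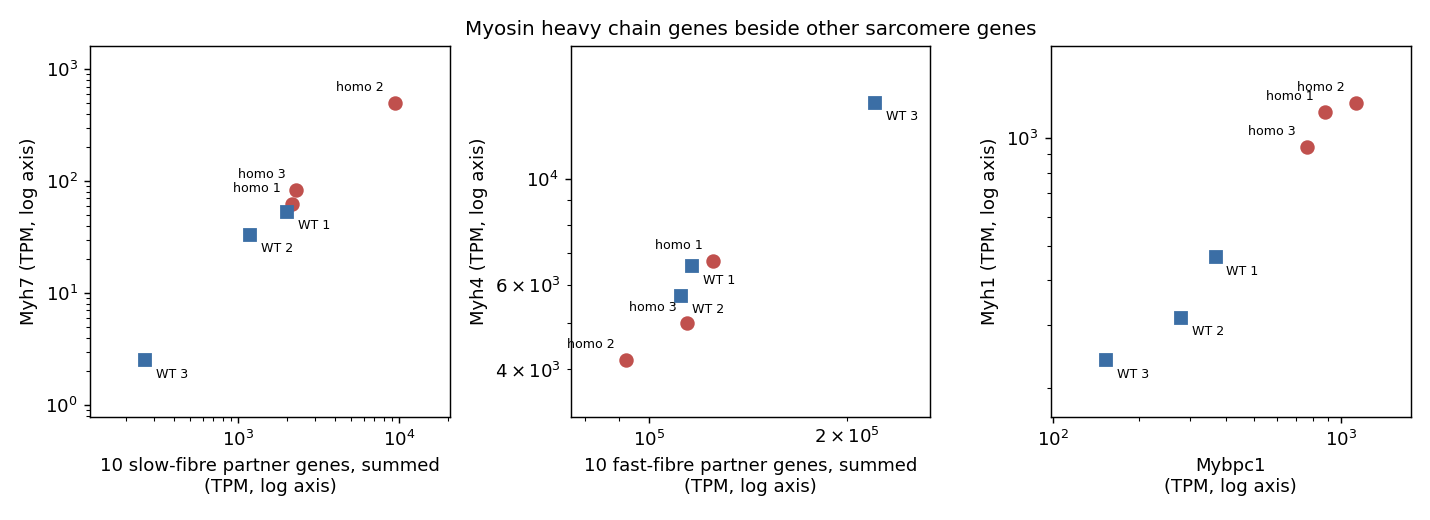
Each point is a library (circles homozygous, squares WT); the y axis gives TPM of Myh7, Myh4 or Myh1 and the x axis TPM of 10 slow partner genes, 10 fast partner genes or Mybpc1 (log axes). WT replicate 3 and homozygous replicate 2 are the ends of the first 2 panels, with the other 4 libraries between them, while in the Mybpc1 panel the 3 homozygous libraries lie apart from the 3 WT libraries.

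Class II heavy chains of other cell types were below Myh4, Myh1 and Myh2 in every library. Myh9 and Myh10, the non-muscle chains, had log2 fold changes of 0.17 and 0.61, Myh14 of 0.49, and Myh11, the smooth muscle chain, of 0.55; in limma 0 of 4 passed and 2 were higher at an unadjusted p under 0.05, against 23.7% of all tested genes. Myh11 was 3.90, 3.79 and 3.42 against 2.59, 2.40 and 1.72 TPM. The 4 smooth muscle markers, Myh11 among them, together were 36.8 to 37.4 TPM in the homozygous and 22.8 to 33.4 TPM in the WT libraries. Of the 3 tested, 2 had every homozygous library above every WT library, as 34.7% of all tested genes did. The groups overlapped for Tagln, whose log2 fold change of 0.20 was below the 0.26 of all genes.

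Patterns most like those of the 4 main chains were sought by Pearson correlation of log2(TPM + 1) over the 6 libraries among 4780 genes with a mean of at least 10 TPM. These are descriptions over 6 libraries that share their composition, with many genes compared. Among the closest to Myh1 were Dnajc9 (r = 0.998) and Cecr5 (0.996). Closest to Myh2 were Cdadc1 (0.999), Klhl41 (0.997), a sarcomere-associated kelch protein, and Mreg (0.996). Correlation does not read the size of a difference. Dnajc9 ran from 12.1 to 16.4 TPM, Cecr5 from 11.4 to 17.1, Cdadc1 from 12.3 to 17.4 and Mreg from 19.0 to 30.3. The highest library held 5.24 times the lowest for Myh1 and 5.98 times for Myh2. Closest to Myh4 were Pgam2 (0.995), the muscle phosphoglycerate mutase, Mrps35 (0.994) and Atp2a1 (0.993), the calcium pump of fast fibres, and closest to Myh7 were Vgll2 (0.999), Tnnc1 (0.999) and Tnnt1 (0.999), the slow troponins C and T and a cofactor of TEAD factors.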

How the data were processed

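Stranded poly-A RNA libraries of quadriceps muscle (3 homozygous, 3 WT) were sequenced, and the authors deposited 1 table of TPM per Ensembl transcript, per the file headers. Each column summed to 1000000 to the nearest whole number and matched 1 library by name. FastQC, Trimmomatic, HISAT2, kallisto and mm10 are named in the submitters' processing notes; as to which tool made the TPM, its version and its annotation release: not given in the sources used here. Positions, lengths and isoform names came from GENCODE M21 (103635 of 105129 transcripts matched without version).

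The members and lists were chosen with earlier results of these data known. TPM was summed per gene symbol, and the filter kept genes that reached 1 TPM in 3 libraries. These were tested with limma 3.58.1 (R 4.3.3; trend, robust, genotype only) on log2(TPM + 1). Log values understate the change of low genes. Shares and ratios were compared with exact permutation tests (scipy 1.17.1). Fragments were estimated by scaling low TPM of single-transcript genes to whole numbers (the best of a grid of scalings), 65.7% to 67.9% of which came within 0.03 of one (6% by chance). Genes of each list with the 2 largest and 2 smallest log2 fold changes were named, as were the 3 genes nearest to each of 4 chains, 1 of which is not reported here. The limma fit was tested on simulated data. Alternatives were quantile normalization, median centring, no filter, a pseudocount of 0.1, array weights, the replicate number as a block, leaving out each library, mitochondrial transcripts left out, a length trend removed (loess, span 0.5), protein-coding isoforms and the highest isoform only.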

Additional observations from a re-analysis of the deposited data

How the results depend on the processing

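The count of members, isoforms or list genes past the threshold changed under array weights alone of the alternatives run. With them 1 of the 6 tested members passed (Myh1, log2 fold change 1.45, limma adjusted p 0.0396), where 7.3% of all tested genes did. Of the 11 tested member isoforms 1 passed (Myh1-203), where 14 of all 21165 did. In the lists, which held 36, 10, 8, 10, 10 and 4 tested genes, 6 passed, beside the same 7.3% of all tested genes. These were Hdac5, Mef2d, Mybpc1, Rcan1, Sox6 and Ttn. Without each replicate in turn the counts were 0 to 0. Myh1 ran from 1.39 (length trend removed) to 2.02 (without WT replicate 1) and Myh2 from 0.76 to 1.69, all positive, with adjusted p of 0.0396 to 0.459 and 0.0638 to 0.587 in limma. Myh4 ran from -1.03 to -0.08, Myh7 from 0.78 to 3.68 and Myh7b from 0.40 to 2.40. With protein-coding isoforms only, Myh7b was below the filter and has no value. Myh8 reversed to -0.15 with quantile normalization, -0.18 with median centring, -0.27 with the length trend removed and -0.016 without WT replicate 2 (from -0.016 to 0.30 over the libraries left out in turn); the cause was not tested. Over their 9 alternatives the differences in shares kept their sign, from 7.43 to 12.4 points for Myh1, 2.55 to 5.82 for Myh2, -22.3 to -11.5 for Myh4 and 0.395 to 3.99 for Myh7. With the replicate number as a block 0 members, 0 isoforms and 0 list genes passed (Myh1 limma adjusted p 0.105); same-numbered libraries correlated in their deviations at -0.07, 0.06 and -0.01, which gives no sign that the numbers pair them. Leaving out homozygous replicate 2 and WT replicate 3 together was chosen after seeing the data. Depth limits Myh3, Myh6 and Myh13, which rest on an estimated 2.34 to 97.0 fragments per library.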
